A study of Mus musculus with 2 samples.

Results

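Noradrenaline is made from tyrosine in a short chain of reactions, and 9 genes of that chain and of the cells that run it were followed here in the embryonic mouse ureter: Th, Ddc, Dbh, Gch1, Slc18a1, Slc18a2, Slc6a2, Phox2a and Hand2. They were taken by gene name from the scanner files of the series, where 12 of 39429 probes carry these names. All 12 probes were above background, so 9 of the 9 genes entered the 21097 genes that could be tested. The genes were selected on their log2 ratios of Tbx2-GOF over control on these 2 arrays, which were already known. Those ratios are therefore given as a description. How many of the 9 passed the fit over all genes is given only beside the share of all genes that did.

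Tbx2-GOF stands for gain of function of Tbx2, which encodes a T-box transcription factor. These embryos had Tbx2 inserted in the Hprt gene of the X chromosome, and cre in 1 of their Tbx18 alleles (Tbx18(cre/+);Hprt(Tbx2/Y)). Control embryos carried the same Hprt allele with Tbx18 alleles free of cre (Tbx18(+/+);Hprt(Tbx2/Y)). All were males of the outbred NMRI stock at E13.5. Cre was placed at the Tbx18 locus, which is active in the mesenchyme around the ureter, and the Tbx2-GOF embryos thus had 1 Tbx18 allele with cre in it. RNA of dissected ureters was hybridised to 2 two-colour arrays, each with 1 extract of either genotype. Array 1 had Tbx2-GOF RNA labelled with AlexaFluor647 (red) and control RNA with AlexaFluor555 (green), and array 2 had the dyes swapped. Neither the number of embryos behind an extract nor their separateness between arrays is given in the sources used here, so the spread between arrays may be technical.

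Catecholamines are the transmitters of sympathetic neurons and the hormones of adrenal chromaffin cells. Both cell types descend from the neural crest, and transcription factors such as PHOX2A and HAND2 take part in switching on their synthesis enzymes. The product is pumped into vesicles, released, and taken back up through a transporter in the cell membrane. Sympathetic fibres and ganglia lie close to the kidney, the adrenal gland and the ureter in the embryo.

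Promoter sequence is shown for Th, Dbh and Slc18a2, which stand for the first step, the last step and the vesicle pump of the chain. Their ratios were above 0 on both arrays, as were those of all 9 genes. Each window runs from 120 bases before to 30 bases after the annotated start site, 5′ to 3′ on the gene's strand, from RefSeq on GRCm38.p6. Capitals mark the 2 motifs found within them: TGACGTCA, the cAMP response element, and the E-box CAGCTG.
Th, chr7:142899966-142900115, minus strand: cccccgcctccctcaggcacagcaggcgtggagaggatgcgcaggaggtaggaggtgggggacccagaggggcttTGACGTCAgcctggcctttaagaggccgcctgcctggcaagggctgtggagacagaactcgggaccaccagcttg
Dbh, chr2:27165387-27165536, plus strand: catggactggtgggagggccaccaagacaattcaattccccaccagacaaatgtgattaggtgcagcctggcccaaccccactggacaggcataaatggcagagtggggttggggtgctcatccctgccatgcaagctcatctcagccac
Slc18a2, chr19:59260758-59260907, plus strand: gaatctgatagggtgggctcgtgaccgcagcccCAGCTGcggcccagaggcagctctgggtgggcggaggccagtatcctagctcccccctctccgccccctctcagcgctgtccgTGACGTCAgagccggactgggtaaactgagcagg

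Of the 9 genes 7 had promoters in the table, 8 windows in all, each of 250 bases before and 50 after the start. Among 6 motifs searched on both strands, the cAMP response element was in the promoters of Th, starting 45 bases before the start site, and of Slc18a2, starting 4 bases before it. Their windows are among those printed above. The element was in no other of the 7 genes, and in 1.79% of all 32851 promoters. CAGCTG was in the Slc18a2 window and in 16.3% of all promoters. The E-box CATCTG was in the Hand2 window and in 17.2% of all promoters. TATAAA was in 1 of the Ddc windows and in that of Gch1, against 13.6% of all promoters. The paired homeodomain palindrome, TAAT and ATTA spaced by 3 bases (0.487% of all promoters) and the T-box half-site GGTGTGA (3.98%) had 0 matches in these windows. No motif overlapped another in the windows printed. A match describes letters and shows no binding.

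All 9 genes had higher signal in Tbx2-GOF than in control on both arrays, with a median log2 ratio of 1.07 (2.10-fold), against -0.00052 for all genes. The means of the 2 arrays ran from 0.91 to 1.34. Both Tbx2-GOF levels were above both control levels for 9 of 9 genes, and 18.2% of all genes show the same. The ratio was above 0 on both arrays for 9 of 9 genes, and for 26.1% of all genes. It was at least 1.5-fold on both arrays for 4 of 9 genes (Th, Gch1, Slc18a1 and Slc18a2) and for 0.825% of all genes. At 2-fold on both arrays there were 0 of 9, against 0.156% of all genes. In limma's fit across all 21097 genes, 2 of 9, Th and Gch1, passed an adjusted p of 0.05, both as higher; of all genes 0.64% passed in either direction and 0.36% as higher. Since the choice of these genes used this contrast, nothing is read from these shares. A ratio of this kind does not tell more cells of a type from more RNA per cell.

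**Figure D1:**
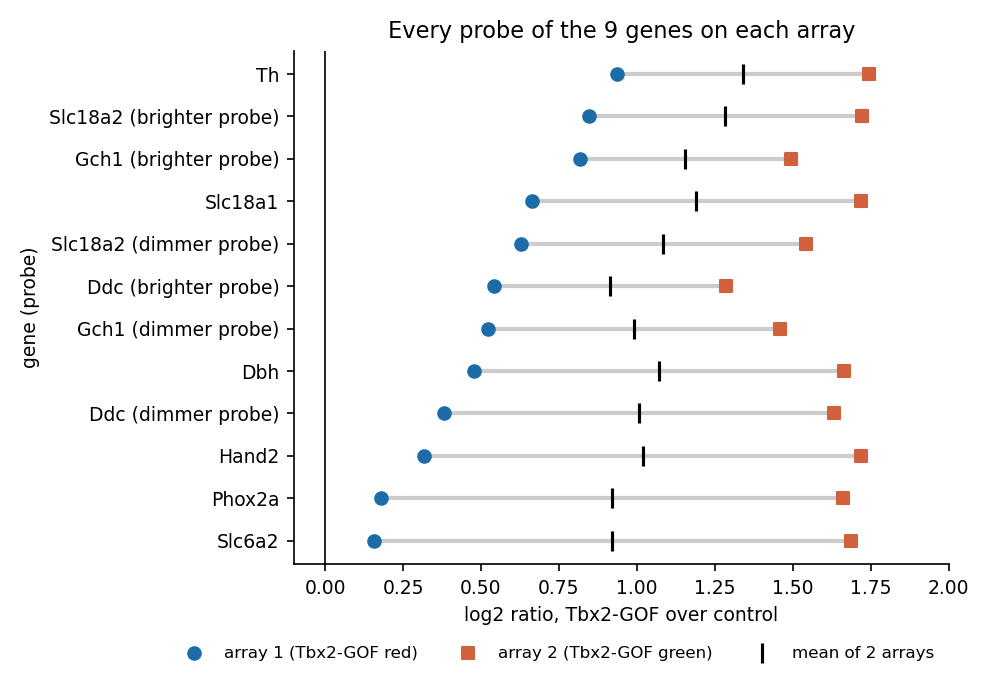
Log2 ratio of Tbx2-GOF over control for each of the 12 probes on array 1 (circles) and array 2 (squares), with the mean of the 2 arrays as a tick and the probes sorted by array 1. Every probe lies right of 0, and every square lies right of its circle; array 1 spans 0.16 to 0.93 and array 2 spans 1.28 to 1.74.

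Th encodes tyrosine hydroxylase, the rate-limiting enzyme, which turns tyrosine into L-DOPA. Its probe lies on chromosome 7 (mm9, 150078703 to 150078762). The normalised intensity of Th, in arbitrary units, was 15321 on array 1 and 14762 on array 2 in Tbx2-GOF ureters, against 8014 and 4408 in control ureters. The groups did not overlap, and the lowest of the 4 extracts was the control of array 2. The log2 ratio was 0.93 on array 1 and 1.74 on array 2, a mean of 1.34 ± 0.57 (SD, n = 2 arrays, as for every mean below). That is 2.53-fold, rank 20 among all genes sorted from the highest ratio down, and the highest of the 9.

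Gch1 encodes GTP cyclohydrolase 1, the first enzyme on the way to tetrahydrobiopterin, the cofactor that tyrosine hydroxylase needs. Its brighter probe (chromosome 14, 47775348 to 47775407) read 4515 and 4342 in Tbx2-GOF ureters, against 2564 and 1542 in control ureters. Again the Tbx2-GOF extracts were alike and the control of array 2 was lowest. The log2 ratio of Gch1 was 0.82 and 1.49 (mean 1.15 ± 0.48, 2.23-fold), which was the smallest gap between the arrays among the 9. The dimmer Gch1 probe (47773797 to 47773856) was at 0.52 and 1.46.

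Ddc encodes the aromatic amino acid decarboxylase that turns L-DOPA into dopamine, an enzyme also made in tissues without catecholamine neurons, such as kidney tubules. Its brighter probe (chromosome 11, 11714106 to 11714165) read 14146 and 16004 in Tbx2-GOF ureters, against 9724 and 6568 in control ureters. The log2 ratio of Ddc was 0.54 and 1.28 (mean 0.91 ± 0.53, 1.88-fold). On array 2 this was the lowest of the 9 genes, whereas the dimmer Ddc probe (11776262 to 11776321), in another part of the gene, was at 0.38 and 1.63 and so within the range of the others on array 2. Of 5 proximal tubule genes 3 were measured, with a median of 0.19 and 0 past limma's test, and summed levels of 2192 and 1933 in Tbx2-GOF ureters against 1992 and 1645 in control ureters. Slc34a1 and Hnf4a of that list were not kept above background, and the part of tubule cells in the Ddc ratio was not tested.

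Dbh encodes dopamine beta-hydroxylase, which makes noradrenaline inside the vesicle and marks noradrenergic cells. Its probe (chromosome 2, 27038665 to 27038724) read 22214 and 23906 in Tbx2-GOF ureters, against 15969 and 7548 in control ureters. The control of array 1 was 2.12-fold above the control of array 2, whereas the Tbx2-GOF extracts differed by less (0.93-fold, array 1 over array 2). The log2 ratio of Dbh was 0.48 and 1.66 (mean 1.07 ± 0.84, 2.10-fold), the median of the 9 genes.

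Slc18a1 and Slc18a2 encode the vesicular monoamine transporters VMAT1, typical of chromaffin and other endocrine cells, and VMAT2, typical of neurons. Slc18a1 (chromosome 8, 71561627 to 71561686) read 2458 and 2504 in Tbx2-GOF ureters, against 1552 and 761 in control ureters, a log2 ratio of 0.66 and 1.72 (mean 1.19 ± 0.75, 2.28-fold). Slc18a2, by its brighter probe (chromosome 19, 59370106 to 59370165), read 6015 and 5129.8 in Tbx2-GOF ureters, against 3347 and 1555 in control ureters, a log2 ratio of 0.85 and 1.72 (mean 1.28 ± 0.62, 2.44-fold). The ratios of the 2 transporters differed by less than the spread between arrays of either.

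The 2 Slc18a2 probes overlap, so they are no independent readings of the transcript. The last 30 bases of the brighter and the first 30 of the dimmer are shown, on the plus strand of mm9, with the 13 bases that both hold in capitals.
Slc18a2 brighter probe, chr19:59370136-59370165: gatcagcaaaggcatgcCTGTTACTGCTCT
Slc18a2 dimmer probe, chr19:59370153-59370182: CTGTTACTGCTCTccaaagaaaaaagaaaa
The dimmer probe read 988 and 962 in Tbx2-GOF ureters, against 639.8 and 330.4 in control ureters, and its log2 ratio was 0.63 and 1.54. For each of the 3 genes with 2 probes, the dimmer probe had the lower ratio on array 1, by 0.16 for Ddc, 0.22 for Slc18a2 and 0.295 for Gch1. On array 2 the dimmer Ddc probe was the higher one, and those of Gch1 and Slc18a2 were lower by 0.03 and 0.18. These gaps between probes of 1 gene are smaller than those between the 2 arrays.

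Slc6a2 encodes the noradrenaline transporter of the cell membrane, which takes released transmitter back into the neuron. Its probe was dim (chromosome 8, 95525166 to 95525225), reading 357 and 505 in Tbx2-GOF ureters, against 321 and 157 in control ureters. The Tbx2-GOF and control extracts of array 1 lay close together, and those of array 2 far apart. The log2 ratio of Slc6a2 was 0.16 and 1.69 (mean 0.92 ± 1.08), the widest gap between arrays of the 9. Its size depended on how dim signals were treated: with processed signals from the scanner software, or with the deposited value table, the mean was 1.47, with 0.14 on array 1 and 2.79 on array 2.

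Phox2a encodes a paired-like homeodomain factor that takes part in specifying autonomic neurons and acts on the Dbh gene. Phox2a (chromosome 7, 108971127 to 108971186) read 15122 and 17382 in Tbx2-GOF ureters, against 13349.9 and 5497 in control ureters, a log2 ratio of 0.18 and 1.66 (mean 0.92 ± 1.05, 1.89-fold). Hand2 encodes a basic helix-loop-helix factor needed for the noradrenergic fate of sympathetic neurons, and is also made in some mesenchyme. Hand2 (chromosome 8, 59803220 to 59803279) read 14972 and 15757 in Tbx2-GOF ureters, against 12020.4 and 4783 in control ureters, a log2 ratio of 0.32 and 1.72 (mean 1.02 ± 0.99, 2.03-fold). For both factors the groups did not overlap, and the control extract of array 1 lay nearer to the Tbx2-GOF extracts than to the control extract of array 2.

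**Figure D2:**
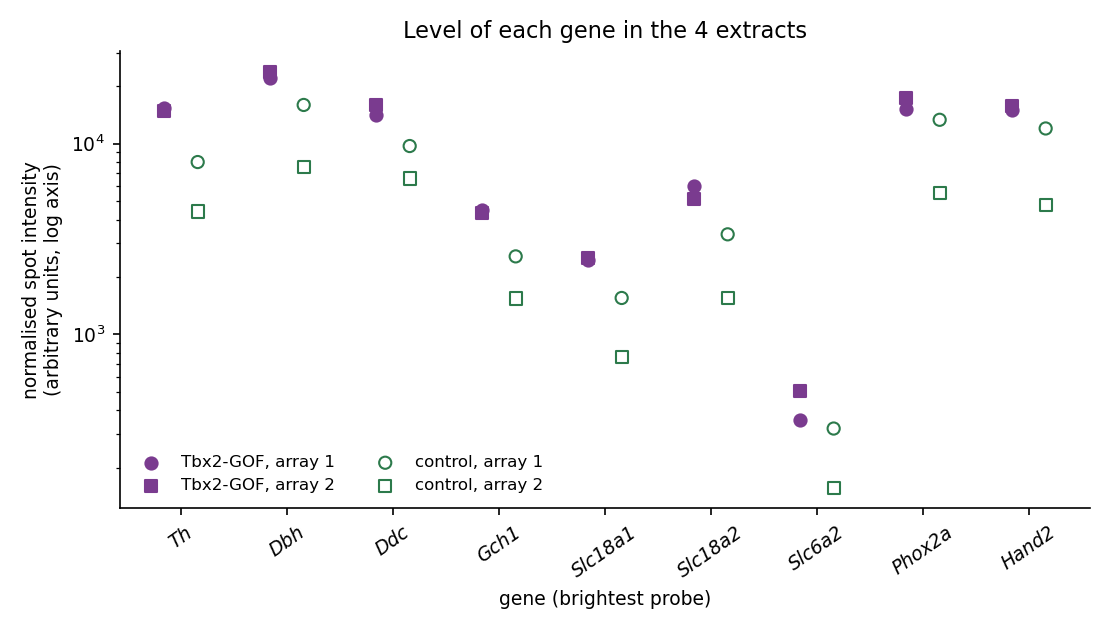
Normalised intensity of the brightest probe of each gene (arbitrary units, log axis) in Tbx2-GOF extracts (filled) left of control extracts (open), array 1 as circles and array 2 as squares. Except for Slc6a2, the Tbx2-GOF symbols of a gene lie close together, whereas the 2 control symbols are 1.48-fold (Ddc) to 2.51-fold (Hand2) apart; brightness is not comparable between probes of different genes.

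Ordered by mean ratio, the genes ran from Th, Slc18a2, Slc18a1, Gch1 and Dbh to Hand2, Slc6a2, Phox2a and Ddc. No neighbours in that order differed by more than the spread between arrays of either gene. The arrays ordered the genes differently in width. On array 1 the ratios spanned 0.78 on the log2 scale, with Th, Slc18a2, Gch1 and Slc18a1 uppermost and Hand2, Phox2a and Slc6a2 lowest, so that the synthesis and vesicle genes all had higher ratios than the 2 transcription factors and the membrane transporter. On array 2 they spanned 0.46, and 8 of the 9 lay between 1.49 and 1.74. Each array is a single reading, so this order on array 1 has no replicate.

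All 9 ratios were higher on array 2, by 0.68 to 1.53 (median 1.05); among all genes 51% were higher on array 2, and the median difference was 0.01. A ratio above 0 on both arrays with array 2 higher by at least 0.5 was seen for 9 of the 9 and for 1.62% of all genes. By single channels the gap lay mainly in the control extracts, and for Slc6a2 also in the Tbx2-GOF extracts. Tbx2-GOF levels of array 1 relative to array 2 differed by -0.50 to 0.23 on the log2 scale (median -0.07), and control levels by 0.57 to 1.33 (median 1.03, 2.04-fold). For all genes these differences had medians of 0.01 in Tbx2-GOF and 0.01 in control. The control difference lay between -0.50 and 0.55 for the central 90%. Among the companion lists below, its median was 1.12 for pan-neuronal genes, 0.86 for further sympathoadrenal factors and 0.67 for granule genes. For the other lists it ran from -0.62 (liver genes) to 0.48 (markers of other transmitters). A lower control level on array 2 was thus not particular to the 9 genes. A control difference of at least the lowest of the 9 was seen for 4.55% of all genes. The 9 genes meet that cut-off by its definition and were chosen on these arrays, so nothing is read from the shares in this paragraph. Since the control extract was green on array 1 and red on array 2, a difference between the 2 control extracts and an effect of dye on these probes cannot be told apart in single channels.

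**Figure D3:**
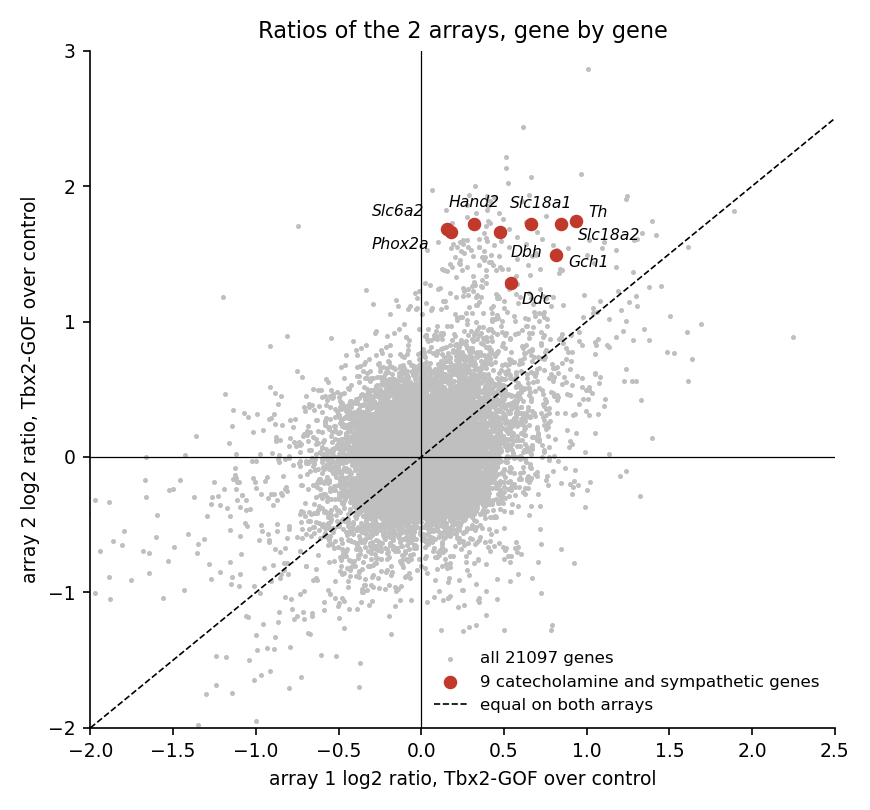
Log2 ratio of Tbx2-GOF over control on array 1 (x axis) and array 2 (y axis) for all 21097 genes (grey, 24 of them beyond the axes) and for the 9 genes (red, labelled), with the line of equal ratios dashed. The 9 genes form a band above that line, between 1.28 and 1.74 on array 2 and spread from 0.16 to 0.93 on array 1.

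The other genes of the pathway had medians near 0. Of 6 genes for methylation, breakdown and vesicle electron transport, 6 were measured and 0 passed limma's test in either direction, with a median of 0.14. Cyb561, the cytochrome that supplies electrons to dopamine beta-hydroxylase inside the vesicle, was at 0.73 on array 1 and 1.19 on array 2 (mean 0.96 ± 0.32, adjusted p = 0.0513 by limma), and it passed that test in 6 of 11 other settings (adjusted p 0.0148 to 0.501). Pnmt, which turns noradrenaline into adrenaline, was dim, at 169 and 175 in Tbx2-GOF ureters against 144 and 130.3 in control ureters, a mean log2 ratio of 0.33 ± 0.14 (adjusted p = 0.489 by limma). Maoa, a breakdown enzyme, was at -0.04 on array 1 and 0.13 on array 2 (mean 0.05). Of 7 tetrahydrobiopterin genes other than Gch1, 7 were measured and 0 passed in either direction (median 0.04); Pts, the next enzyme after GTP cyclohydrolase 1, was at -0.49 ± 0.55 and Gchfr, which regulates that enzyme, at 0.18 ± 0.46. Of 14 adrenergic and dopamine receptors 10 were measured, with 0 past the test and a median of 0.06; Adrb3 was at 0.71 ± 0.06 (adjusted p = 0.0723 by limma) and Adra1d at -0.32 ± 0.39.

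Other genes of the sympathoadrenal lineage had higher medians than these lists, a difference that was not tested. Every call by limma in these lists was lost with processed signals, median centring or the deposited value table, where 0 of all genes passed (2055, 1219 and 2060 at an unadjusted p under 0.05). Of 13 further transcription factors 13 were measured and 0 passed limma's test, with medians of 0.34 on array 1 and 1.42 on array 2. Hand1, a relative of Hand2, was at 1.17 ± 0.62, and Gata3, which sympathetic neurons share with the nephric duct, at 0.73 ± 0.14 (adjusted p = 0.0691 and 0.0728 by limma). Among 10 measured receptors of sympathetic neurons, of 11 listed, 1 rose and 9 did not pass. Ret, also a receptor of the ureteric bud, was at 1.25 ± 0.91 (adjusted p = 0.120 by limma).

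Chromaffin cells store and release the products of granule genes together with catecholamines. Of 14 listed, 14 were measured, 2 rose and 12 did not pass, with medians of 0.42 and 1.44 on the arrays. On both arrays 13 were above 0 and 1, Penk, was below 0 (mean -0.19 ± 0.09). Penk was named after its values were seen. Vgf rose by 1.58 ± 0.48 and Scg2 by 1.57 ± 0.47 (adjusted p = 0.0267 for each by limma). Cartpt, a neuropeptide gene, was at 1.94 ± 1.31, and Chga, chromogranin A, at 0.92 ± 0.66 (adjusted p = 0.0809 and 0.145 by limma). Ratios of these lists share the same 2 arrays and control extracts with the 9 genes.

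Lists of markers of other cells differed in their ratios. Of 14 pan-neuronal genes 14 were above 0 on both arrays and 0 passed limma's test, with medians of 0.35 on array 1 and 1.75 on array 2. Their summed level was 164576 and 188178 in Tbx2-GOF ureters, against 125830 and 69873 in control ureters; Nefm was at 1.53 ± 1.28 and Elavl4 at 1.29 ± 0.91. Of 8 Schwann cell precursor genes 1 rose and 7 were above 0 on both arrays, with medians of 0.60 and 0.93 and summed levels of 30050.0 and 30235 in Tbx2-GOF ureters against 15879 and 12682 in control ureters. Fabp7 rose by 1.57 ± 0.25 (adjusted p = 0.0190 by limma), and Sox10, the defining factor of these glial precursors, was at 0.89 ± 0.50. Of 13 markers of other transmitters 8 were measured and 0 passed (medians 0.04 and 0.53), with 4 of 8 above 0 on both arrays and 1 below. Slc18a3, the acetylcholine pump, was at 1.16 ± 1.08 and Vip at 0.91 ± 0.96, the highest of the 8. Slc5a7 (0.59 ± 0.79) and Chat (0.58 ± 0.56) were the others above 0 on both arrays. Gad2, which makes GABA, was at -0.43 ± 0.14, and Slc32a1 (0.01), Tph1 (-0.01) and Slc6a4 (-0.02) were near 0. All of these except Slc18a3 and Vip were named after their values were seen. Slc6a3, the dopamine transporter of brain neurons, was not kept above background. The part of nerve cells or glia in the extracts in the ratios of the 9 genes was not tested.

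Adrenal cortex encloses the chromaffin cells of the adrenal medulla. Of 12 cortex genes 11 were measured, 2 rose and 0 fell. Akr1b7 rose by 3.27 ± 0.59 and Mc2r, the corticotropin receptor, by 1.27 ± 0.33 (adjusted p = 0.00516 and 0.0277 by limma), with Mc2r above background on 1 of 2 arrays in controls. Over the alternatives on both arrays the Mc2r ratio lay between 1.27, as reported, and 2.59, with processed signals. Both were farther up on array 1, unlike the 9 genes. The list's median was 0.00, and its summed level was 34848 and 32693 in Tbx2-GOF ureters, against 24907 and 29803 in control ureters. The steroid synthesis genes Star (0.18) and Cyp11a1 (-0.12) did not pass the test. Mast cell and megakaryocyte genes, whose cells also use Slc18a2, had a median of -0.04 with 0 of 6 measured genes past the test (Ppbp 0.38, Cpa3 -0.25) and summed levels of 9336 and 11406 in Tbx2-GOF ureters against 8003 and 11328 in control ureters. Their parts in the result were not tested.

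**Figure D4:**
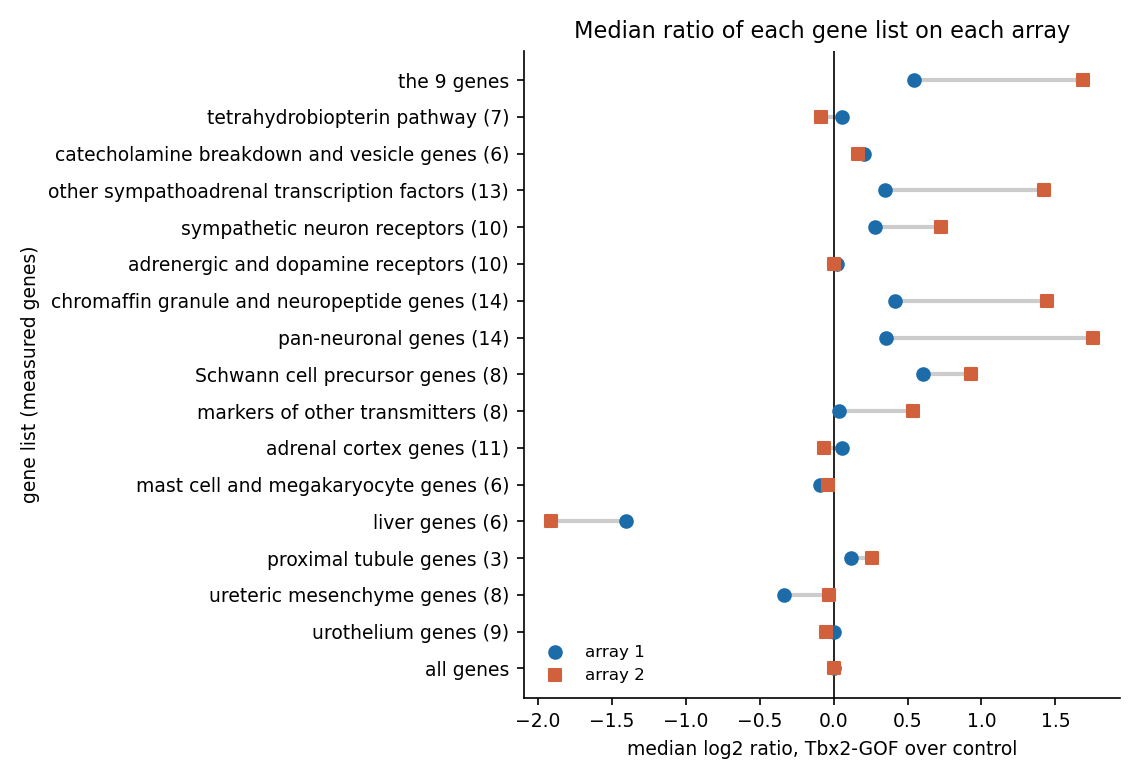
Median log2 ratio of Tbx2-GOF over control on array 1 (circles) and array 2 (squares) for the 9 genes, for each companion list with its number of measured genes, and for all genes. The 9 genes, the sympathoadrenal factors, the granule genes and the pan-neuronal genes have array 2 medians of 1.42 to 1.75 and array 1 medians of 0.34 to 0.54; the Schwann cell precursor genes lie at 0.60 and 0.93, and the liver genes at -1.41 and -1.91.

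Of the markers of the labelled tissue, 8 of 8 genes of ureteric mesenchyme and 9 of 9 of urothelium were measured above background. Their list medians were -0.12 and -0.03. By the same rule 6 of 6 liver genes and 14 of 14 pan-neuronal genes were measured, so detection does not identify the tissue. In the mesenchyme and urothelium lists, Foxd1 fell by 0.98 and Upk3a by 0.86 on the log2 scale (adjusted p = 0.0471 and 0.0450 by limma). Foxd1 is also a gene of renal stroma, so its fall is not particular to ureteric mesenchyme. Aldh1a2 was at 0.71 and Upk1b at -0.41. Of 6 liver genes 5 fell, Afp (-2.95) and Alb (-2.15) among them (adjusted p = 0.00241 and 0.00680 by limma). Tbx2 was at 0.30 ± 0.37 and Tbx18 at -0.45 ± 0.20 (adjusted p = 0.711 and 0.266 by limma). Whether the Tbx2 probe reads the Hprt allele was not analysed here. Over all genes the ratios of the 2 arrays had a Pearson's r of 0.308 and a Spearman's rho of 0.125, a description across 21097 genes that share both arrays.

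By distance between log2 ratios on the 2 arrays, Slc18a2 was the nearest of all genes to Th (0.09), and Gch1 and Slc18a1 followed within the nearest 13 (0.28 and 0.27). Dbh was 43rd, Ddc 82nd, Hand2 89th, Phox2a 152nd and Slc6a2 164th. The 9 genes were chosen on these same ratios, so nothing is read from their closeness to Th. Outside the 9, the nearest genes with a RefSeq symbol were Nap1l5 (0.16), Gdap1 (0.18), Tmem130 (0.21), Gjd2 (0.23) and St8sia3 (0.25). Nap1l5 read 1.02 on array 1 and 1.60 on array 2. Likeness over 2 arrays is a coarse measure, and the 5 were picked for it.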

How the data were processed

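Per the submitters' processing notes, the scanner images were read by Feature Extraction 10.7.3.1. Mean spot signals and local backgrounds are intensity values as scanned, per the file headers. Per the file headers, that software also gave processed intensity values, corrected for background, spatial trend and dye, and a log10 ratio (red divided by green). The deposited value table holds a signed fold ratio (unit score) of unstated scale, centring and direction. Its median was 1 on both arrays. Where both channels exceeded background, 99.2% and 98.8% of its values were within 0.01 (log10) of the software's log ratio turned to Tbx2-GOF over control.

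Ratios were computed with limma 3.58.1 in R 4.3.3: normexp (offset 50), loess within arrays (span 0.3), control and outlier-flagged spots left out, no scaling between arrays, sign turned by the labelled dyes. Levels are single channels after loess and Aquantile normalisation. A probe was kept where either group was well above background on both arrays (26471 of 39429). Each gene is its brightest kept probe. Symbols came from RefSeq accessions (GRCm38.p6), which matched 26412 probes (67%). Probe positions are on mm9, per the file headers. The fit used lmFit and eBayes (1 residual and 6.36 prior degrees of freedom). Tests were two-sided and adjusted by Benjamini-Hochberg with a threshold of 0.05. The fit was tested on simulated data. Of the spots, 209 on array 1 and 391 on array 2 were flagged, and 0 were saturated. Tbx2-GOF was above background for 66.7% and 72.7% of probes, and control for 70.5% and 66.4%. Both arrays lay on 1 slide, so no slide or scan batch could be tested. Precision is limited by the 2 arrays.

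Named genes were the 9 genes, the called genes and the 2 largest ratios of each companion list, some fixed regulators, and the 5 genes nearest Th. The genes and lists were chosen with earlier results of these data known. Some genes that this rule names are not reported here. No sequence was printed for genes missing from the promoter table.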

Additional observations from a re-analysis of the deposited data

How the results depend on the processing

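The 9 genes kept ratios above 0 on each array, with array 2 higher, in all 11 alternatives that used both arrays. Settings that changed only the probe filter or the fit left the ratio of every named gene they kept as reported. For those settings the sign was thus fixed in advance. The deposited value table gave the 9 genes the same ratios as processed signals. The median of the 9 genes was 1.69 on array 2 alone (without replicate 1) and 0.54 on array 1 alone (without replicate 2). That is a range of 0.54 to 1.69, against 1.07 as reported. The count of the 9 past limma's test ranged from 0 (offset 0, processed signals, median centring, deposited value table, separate-channel model) to 5 (scaling between arrays). Over all genes, 135 calls (76 higher, 59 lower; 1970 at an unadjusted p under 0.05) became 0 (0 and 0) in each of 3 settings: processed signals (2055 unadjusted), median centring (1219) and the deposited value table (2060), 4 (2 and 2) with the separate-channel model, 313 (197 and 116) with scaling, 276 (167 and 109) with no filter on dim probes, and 211 (124 higher) with the mean of a gene's probes. Calls among the companion genes, 13 as reported, were 0 in those 3 settings, 2 with separate channels, 31 with scaling, 24 with no filter and 20 with probe means. The cause was not tested. Of 503 values of the other named genes under both arrays, 65 lost and 31 gained a call and 0 changed sign. With 1 array left out, Gchfr ranged from -0.1461 (array 2 alone) to 0.5091 and Maoa from -0.04018 (array 1 alone) to 0.1336. The fit was itself paired, since each ratio pairs the 2 extracts of an array, and no further pairing was possible. With 2 arrays, 1 residual degree of freedom limits every test, and the mean ratio of Slc6a2 ranged from 0.86 to 1.47 over the alternatives.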
